A study of Mus musculus with 9 samples.

Results

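Interferon signalling was described through 9 genes in sorted skin cells of C57BL/6 mice at postnatal days 1, 7 and 14. The labels call the cells keratinocytes, which make up most of the epidermis. The genes were taken by symbol, as a list of interferon receptor and signalling genes, from a table of 24532 genes, and all 9 were found there and passed the filter on low counts. They are the receptor chains Ifngr1, Ifngr2, Ifnar1 and Ifnar2, the kinases Jak1 and Jak2, and the transcription factors Stat2, Irf1 and Irf9. Each day had 3 libraries, and the labels give no mutation and no treatment. The cells were live by exclusion of propidium iodide and lacked CD45.2, a leukocyte surface protein. No keratinocyte protein was selected, so other skin cells without CD45.2 could be present. Whether separate animals gave the libraries of a day is not in the labels. The p-values thus rest on the spread among these libraries alone, and how much of that spread is technical is not known.

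Interferons are secreted proteins that warn cells of infection. Type I interferons bind the receptor made of Ifnar1 and Ifnar2, and interferon gamma, the type II interferon, binds the receptor made of Ifngr1 and Ifngr2. Janus kinases bound to the receptor tails then phosphorylate STAT proteins. Stat2 and Irf9 are subunits of the main type I complex, ISGF3, which binds interferon-stimulated response elements, while the type II pathway acts through gamma-activated sites. In the skin, keratinocytes respond to interferons with antiviral proteins and antigen presentation.

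Total counts lay between 50670191 and 62970768 per library. Across genes, Pearson's r of log2 CPM was 0.986 to 0.991 for 2 libraries of 1 day. The summed level of 14 keratinocyte markers was 55783 to 63177 CPM at day 1, 65576 to 67947 CPM at day 7 and 53839 to 56399 CPM at day 14, with none of them at 0 in any library. Krt5 averaged 21979.9, 22464 and 15524 CPM at days 1, 7 and 14, Krt14 averaged 12764, 10473 and 7058 CPM, and Krt10 averaged 5608, 5491 and 7014 CPM. The female transcript Xist averaged 1352 CPM at day 1 and 2534 CPM at day 14 and had 0 counts at day 7. The Y-linked Ddx3y averaged 41.8 CPM at day 1 and 105 CPM at day 7 and had 0 counts at day 14. In day 1 libraries 4, 5 and 6, Xist had 1553, 861 and 1642 CPM and Ddx3y had 40.7, 55.6 and 29.0 CPM. By these markers each day 1 library held RNA of both sexes, and so of more than 1 animal, in proportions that differed between the libraries. The day 7 libraries read as male and the day 14 libraries as female. The spread within day 1 therefore includes a varying mix of sexes, which the other days did not show. The sex-linked transcripts thus moved with age, and a contribution of sex to any difference below cannot be told apart from age. The day 7 libraries also have column headers of another style, and any difference in their handling is equally inseparable from age.

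The 300-base promoter windows of 5 of the genes are shown because they hold the letters of an interferon element or, for Ifngr1, because its level changed most. They run from 250 bases before to 50 bases after a transcript start on the plus strand of GRCm38.p6, the mm10 assembly, and are RefSeq sequences. Capitals mark matches to TTCNNNGAA, the form of a gamma-activated site, which reads alike on both strands. They also mark 2 copies of GAAA separated by any 2 bases, the core of an interferon-stimulated response element, searched on both strands.
Ifngr1 (chr10:19591699-19591998): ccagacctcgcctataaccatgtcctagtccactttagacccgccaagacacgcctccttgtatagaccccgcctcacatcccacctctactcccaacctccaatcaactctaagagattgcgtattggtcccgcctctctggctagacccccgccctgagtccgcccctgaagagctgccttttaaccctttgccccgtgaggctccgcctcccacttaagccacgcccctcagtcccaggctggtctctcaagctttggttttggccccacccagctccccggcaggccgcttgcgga
Ifnar1 (chr16:91484965-91485264): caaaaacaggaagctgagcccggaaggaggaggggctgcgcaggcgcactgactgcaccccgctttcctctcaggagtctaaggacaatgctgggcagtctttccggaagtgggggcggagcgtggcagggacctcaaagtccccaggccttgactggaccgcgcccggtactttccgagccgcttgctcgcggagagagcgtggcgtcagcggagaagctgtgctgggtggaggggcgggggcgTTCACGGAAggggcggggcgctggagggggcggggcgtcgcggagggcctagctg
Ifnar2 (chr16:91372533-91372832): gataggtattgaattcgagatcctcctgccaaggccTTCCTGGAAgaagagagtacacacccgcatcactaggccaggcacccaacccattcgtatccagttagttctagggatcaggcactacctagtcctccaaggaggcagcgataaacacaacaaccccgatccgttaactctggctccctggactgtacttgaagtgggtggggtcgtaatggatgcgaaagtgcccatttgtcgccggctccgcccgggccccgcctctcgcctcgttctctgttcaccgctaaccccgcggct
Stat2 (chr10:128270248-128270547): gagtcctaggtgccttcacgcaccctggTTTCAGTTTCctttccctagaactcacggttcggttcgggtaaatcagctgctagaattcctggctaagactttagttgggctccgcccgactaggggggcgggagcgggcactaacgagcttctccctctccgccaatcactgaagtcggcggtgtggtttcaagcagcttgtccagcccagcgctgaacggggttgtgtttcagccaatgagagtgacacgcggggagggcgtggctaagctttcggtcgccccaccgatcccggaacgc
Irf1 (chr11:53769764-53770063): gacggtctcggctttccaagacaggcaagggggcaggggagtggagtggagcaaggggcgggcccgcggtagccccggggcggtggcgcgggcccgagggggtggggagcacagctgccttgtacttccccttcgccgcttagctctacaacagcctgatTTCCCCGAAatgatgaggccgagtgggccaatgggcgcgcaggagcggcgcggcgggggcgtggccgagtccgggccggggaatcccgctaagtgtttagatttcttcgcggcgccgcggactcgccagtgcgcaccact

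All 9 genes were matched by gene identifier, with 11 windows in all, since Irf1 and Irf9 have more than 1 annotated start. TTCNNNGAA was present in 3 of these 11 windows, against 8.30% of all 32851 windows in the reference. The match began 90 bases before the start in Irf1, 5 bases before it in Ifnar1 and 214 bases before it in Ifnar2. The GAAA pair was present in 1 of 11, the Stat2 window, where it read on the minus strand and began 222 bases before the start, against 3.44% of all windows. No match of either form overlapped the other. Of the 11 windows, 10 had a GC content above the median of 52.7% over all windows, with 81.0% in Jak2 at the top and 52.7% at the second start of Irf9 at the bottom. CpG dinucleotides ranged from 1 to 44 per window, with a median of 7 over all windows.

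The transcript levels of the receptor chains diverged with age. Ifngr1, the ligand-binding chain of the interferon gamma receptor, rose in both steps and was 6.59-fold higher at day 14 than at day 1, while its partner Ifngr2 was nearly level. The type I receptor chains Ifnar1 and Ifnar2 fell to their lowest level at day 14. Levels below are counts relative to the TMM-scaled library size (CPM), and changes are log2 fold changes ± SE, later over earlier day, from edgeR's quasi-likelihood test with Benjamini-Hochberg adjustment over all 14507 genes tested.

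Ifngr1 (gene 15979, chromosome 10, 19591949 to 19610229) had 42.7, 32.2 and 37.6 CPM in the day 1 libraries, 111, 124 and 125 CPM at day 7, and 251, 223 and 267 CPM at day 14. Every day 7 library lay above every day 1 library, and every day 14 library above every day 7 library. The change was 1.68 ± 0.11 for day 7 over day 1 (adjusted p = 9.52e-07), 1.04 ± 0.10 for day 14 over day 7 (adjusted p = 1.11e-05) and 2.72 ± 0.11 for day 14 over day 1 (adjusted p = 7.87e-09). The second step was smaller than the first by 0.64 ± 0.18 on the log2 scale (-0.64, edgeR adjusted p = 0.0124). In these bulk samples, a change in the share of a cell type and a change in RNA per cell cannot be told apart.

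Ifngr2, the chain that carries Jak2 to the receptor (gene 15980, chromosome 16, 91547059 to 91564007), had 30.8, 31.5 and 34.8 CPM at day 1, 35.0, 36.1 and 36.5 CPM at day 7, and 32.4, 33.5 and 27.9 CPM at day 14. Libraries of day 14 and day 1 overlapped. Day 14 was lower than day 7 by edgeR (-0.20 ± 0.07, adjusted p = 0.0309), and neither day 7 over day 1 (0.15 ± 0.07, adjusted p = 0.112) nor day 14 over day 1 (-0.05 ± 0.07, adjusted p = 0.56) passed the test. The day 14 call was lost with RLE size factors (0.0603), with DESeq2 (0.0692), and when day 7 library 2 (0.0612) or 3 (0.0662) or day 14 library 6 (0.104) was left out, over a range of 0.000688 to 0.104.

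Ifnar1, the chain that binds the kinase Tyk2 (gene 15975, chromosome 16, 91485032 to 91510523), had 71.2, 66.7 and 66.4 CPM at day 1, 61.6, 65.7 and 58.9 CPM at day 7, and 46.7, 43.5 and 43.6 CPM at day 14. All day 14 libraries lay below all others. It fell at day 14 relative to day 7 (-0.48 ± 0.05, edgeR adjusted p = 8.07e-06) and to day 1 (-0.61 ± 0.05, adjusted p = 5.35e-07). Day 7 over day 1 was -0.13 ± 0.05 and did not pass the test (adjusted p = 0.0579). That value did pass with RLE size factors (0.0388), library totals alone (0.00431), DESeq2 (0.0408) and limma-voom (0.0491) and without day 7 library 2 (0.0322), with 0.226 at the highest.

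Ifnar2, the type I chain that binds Jak1 (gene 15976, chromosome 16, 91372783 to 91405589), had 25.3, 24.5 and 24.1 CPM at day 1, 21.6, 18.7 and 20.9 CPM at day 7, and 12.7, 15.3 and 11.7 CPM at day 14. The libraries of the 3 days did not overlap, in falling order with age. Day 14 was lower than day 7 (-0.63 ± 0.09, edgeR adjusted p = 8.41e-05) and than day 1 (-0.90 ± 0.09, adjusted p = 2.52e-06). Day 7 was lower than day 1 (-0.27 ± 0.09, adjusted p = 0.0288), and this was no longer called when day 1 library 4 (0.0773), 5 (0.0578) or 6 (0.0527) or day 7 library 2 (0.117) or 3 (0.0564) was left out, over a range of 0.00565 to 0.117. Its 5′ part overlaps the noncoding gene Gm36587, which was not analysed here. The gene counts do not separate the soluble from the membrane form of Ifnar2.

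**Figure D1:**
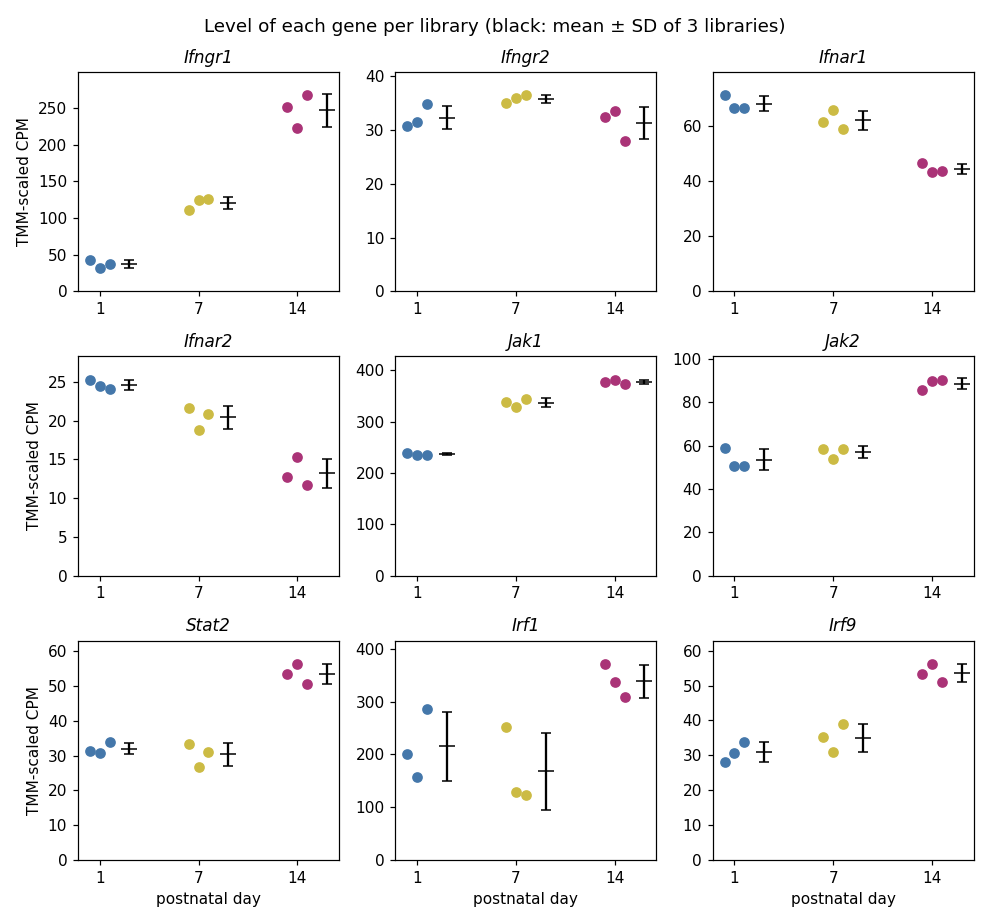
Level of each of the 9 genes in every library, in CPM on TMM-scaled libraries, at postnatal days 1, 7 and 14. Coloured points are libraries and black marks are the mean ± SD of 3. Ifngr1 steps up at each day to 223 to 267 CPM at day 14, Ifnar1 and Ifnar2 are lowest at day 14, and Irf1 has the widest spread within days 1 and 7.

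Both kinases rose between day 1 and day 14, Jak1 mostly by day 7 and Jak2 only after it by the test. Jak1, which serves both interferon receptors and many interleukin receptors (gene 16451, chromosome 4, 101151974 to 101265282), had 239.6, 235 and 236 CPM at day 1, 338, 328 and 345 CPM at day 7, and 377, 382 and 374 CPM at day 14. The 3 days did not overlap, and the spread within a day was small. Jak1 rose by 0.51 ± 0.04 at day 7 over day 1 (edgeR adjusted p = 5.84e-07) and by 0.67 ± 0.04 at day 14 over day 1 (adjusted p = 1.03e-08). The change at day 14 over day 7 was 0.16 ± 0.04 (adjusted p = 0.00255). With library totals alone it turned to -0.01 (adjusted p = 0.824), where the median of all genes was -0.21, so that Jak1 lay 0.20 above that median. The last bases of Jak1 overlap Raver2, which had 170 to 912 counts per library against 14498 to 21392 for Jak1.

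Jak2, the kinase bound to Ifngr2 (gene 16452, chromosome 19, 29251803 to 29313095), had 59.1, 50.7 and 50.7 CPM at day 1, 58.7, 54.0 and 58.5 CPM at day 7, and 85.9, 89.8 and 90.5 CPM at day 14. Days 1 and 7 overlapped, and all day 14 libraries lay above both. Day 14 was higher than day 7 (0.64 ± 0.06, edgeR adjusted p = 2.54e-06) and than day 1 (0.73 ± 0.06, adjusted p = 4.34e-07). Day 7 over day 1 was 0.09 ± 0.06 (adjusted p = 0.251), and it passed the test only without day 1 library 4 (0.17, adjusted p = 0.0195, against 0.938 at the highest). The difference between the steps was tested itself and was -0.34 ± 0.07 for Jak1 (adjusted p = 0.00108) and 0.54 ± 0.11 for Jak2 (adjusted p = 0.00152), second step minus first.

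The ISGF3 subunits Stat2 and Irf9 rose in the second week and had nearly equal counts at days 1 and 14. Stat2, the STAT protein particular to type I and type III signalling (gene 20847, chromosome 10, 128270498 to 128292853), had 31.3, 30.8 and 33.8 CPM at day 1, 33.3, 26.7 and 30.9 CPM at day 7, and 53.5, 56.3 and 50.7 CPM at day 14. Days 1 and 7 overlapped and day 14 lay above both. The change was 0.82 ± 0.08 for day 14 over day 7 (edgeR adjusted p = 1.62e-06), 0.74 ± 0.08 for day 14 over day 1 (adjusted p = 2.34e-06) and -0.08 ± 0.08 for day 7 over day 1 (adjusted p = 0.437). Its annotated span overlaps Apof, which had 0 counts in every library.

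Irf9, the DNA-binding subunit of ISGF3 (gene 16391, chromosome 14, 55603985 to 55610030), had 28.1, 30.6 and 33.8 CPM at day 1, 35.4, 30.9 and 38.9 CPM at day 7, and 53.5, 56.2 and 51.1 CPM at day 14. The same days overlapped as for Stat2. Irf9 rose at day 14 over day 7 (0.61 ± 0.09, edgeR adjusted p = 6.59e-05) and over day 1 (0.80 ± 0.09, adjusted p = 5.22e-06). Day 7 over day 1 was 0.18 ± 0.09 (adjusted p = 0.105), and it passed without day 1 library 6 (0.0394) or day 7 library 2 (0.0201), with 0.432 at the highest. The second step exceeded the first by 0.90 ± 0.14 for Stat2 (adjusted p = 0.000203) and by 0.43 ± 0.15 for Irf9 (adjusted p = 0.0336). The Irf9 call was lost under 7 of 14 alternatives. These were library totals alone (0.0608) and the omission of day 1 library 5 (0.0625) or 6 (0.0731), of day 7 library 1 (0.0807) or 2 (0.192), and of day 14 library 4 (0.0615) or 5 (0.0736), where 0.0123 was the lowest over all.

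Irf1, an interferon-induced transcription factor that drives class I antigen presentation genes (gene 16362, chromosome 11, 53770014 to 53778374), varied most of the 9 genes between libraries of days 1 and 7. It had 202, 158 and 286 CPM at day 1, 252, 129 and 122 CPM at day 7, and 371, 337 and 308 CPM at day 14. Days 1 and 7 overlapped widely, and every day 14 library lay above every library of days 1 and 7. The change was 1.01 ± 0.35 for day 14 over day 7 (edgeR adjusted p = 0.0397), 0.66 ± 0.35 for day 14 over day 1 (adjusted p = 0.132) and -0.36 ± 0.35 for day 7 over day 1 (adjusted p = 0.439). The call was lost under 9 of 15 alternatives, with library totals alone (0.0644), no low-count filter (0.0537), a fit of days 7 and 14 alone (0.0587), and when day 1 library 4 (0.0652), day 7 library 2 (0.118) or 3 (0.112) or any single day 14 library (0.071 to 0.101) was omitted. The lowest value over the alternatives was 0.00427. Day 14 over day 1 passed without day 7 library 1 (0.0405, against 0.33 at the highest), and without that library the second step minus the first was 2.199 (adjusted p = 0.0129) in place of 1.37 ± 0.62 (adjusted p = 0.11).

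Immediate early genes, which respond within minutes to stress and tissue handling, were listed beside Irf1. Their summed level over 23 genes was 21232, 17993 and 23211 CPM in day 1 libraries 4, 5 and 6, 27689, 20854 and 20647 CPM in day 7 libraries 1, 2 and 3, and 46810, 45294 and 49617 CPM in day 14 libraries 4, 5 and 6. Within days 1 and 7 the libraries stood in the same order for this sum as for Irf1, and within day 14 they did not. By edgeR, 20 of the 23 genes were higher and 0 lower at day 14 than at day 7, with a median log2 fold change of 1.08 (-0.035 over all genes), where 32.5% of all genes were higher and 35.1% lower. At day 14, 18 were higher and 0 lower than at day 1, against 35.5% and 38.4% of all genes. Their part in the Irf1 values was not tested.

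**Figure D2:**
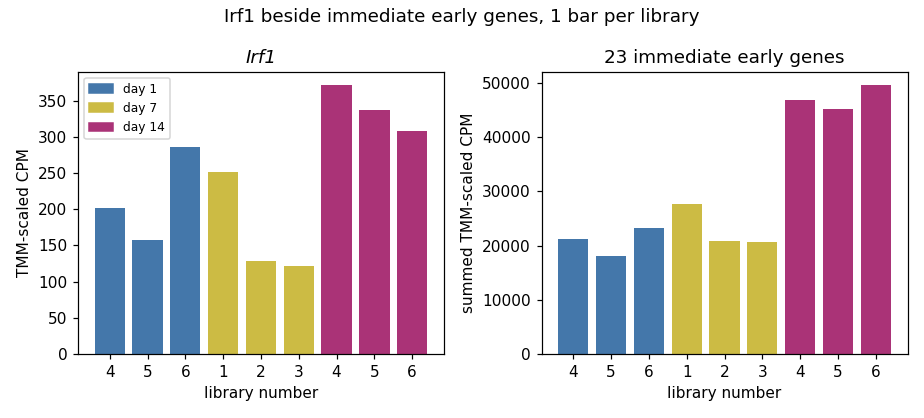
Irf1 level (left) and summed level of 23 immediate early genes (right) in TMM-scaled CPM, 1 bar per library, at days 1, 7 and 14. Day 1 library 6 and day 7 library 1 are the highest of their day in both panels, and all day 14 bars stand above the rest.

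Over the 9 genes, edgeR called 3 at day 7 over day 1, among which Ifngr1 and Jak1 were higher and Ifnar2 lower. Over all genes tested, 49.4% were called in this comparison, 25.5% higher and 24% lower. All 9 were called at day 14 over day 7, with 6 higher and 3 lower, where 67.6% of all genes were called, 32.5% higher and 35.1% lower. At day 14 over day 1, 7 were called, 5 higher and 2 lower, against 73.9% of all genes, 35.5% higher and 38.4% lower. The median log2 fold change of the 9 genes was 0.093, 0.613 and 0.672 in these comparisons, in the order given, against -0.001, -0.035 and -0.046 over all genes. A test for any difference over the 3 days called 7 of 9, all but Ifngr2 (adjusted p = 0.0571) and Irf1 (0.0727), where 82.1% of all genes were called. The difference between the steps was called for 7 of 9, all but Ifnar2 (0.0809) and Irf1, against 51.8% of all genes. Of these 7, the Ifngr2 value (-0.34 ± 0.13, adjusted p = 0.0363) was lost under 7 of 14 alternatives (0.0528 to 0.0996), with RLE size factors, DESeq2, and the omission of day 1 library 4 or 5 or any single day 7 library. The Ifnar1 value (-0.34 ± 0.09, adjusted p = 0.00852) was lost without day 7 library 2 (0.0558). The steps share the day 7 libraries and are not independent. With library totals alone in place of TMM, 35.7%, 34.9% and 31.9% of called genes were higher at the later day in the 3 comparisons, against 51.5%, 48.1% and 48.1% with TMM.

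**Figure D3:**
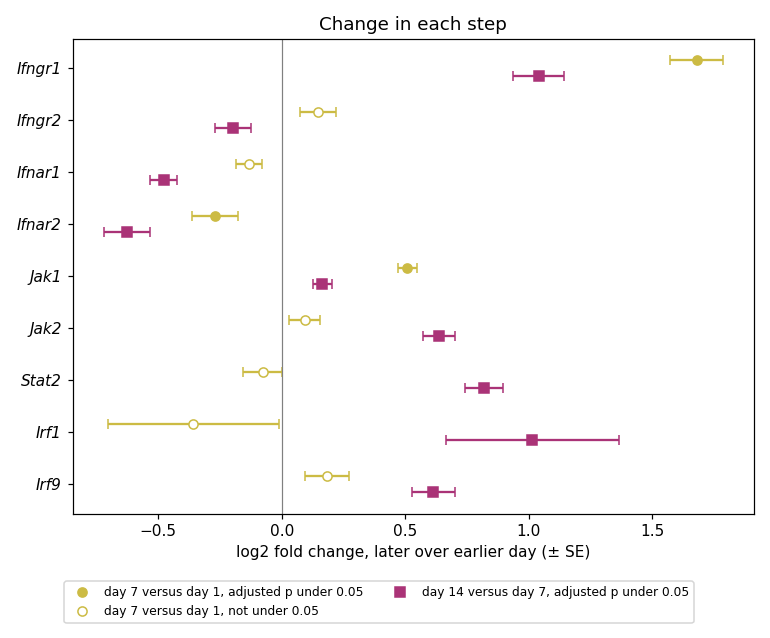
log2 fold change ± SE of each of the 9 genes in the first step (circles) and second step (squares), later over earlier day, from 3 libraries per day. Filled symbols have an adjusted p under 0.05. Ifngr1 and Jak1 show the larger change in the first step, and Jak2, Stat2 and Irf9 in the second.

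Ratios of paired genes within a library do not depend on how libraries are scaled, and they show unequal change only. They were compared over the 3 days with an exact permutation test of the between-day spread, which has no direction (smallest possible p = 0.00357), adjusted over 6 pairs. The log2 ratio of Ifngr2 to Ifngr1 counts was -0.21 ± 0.23 at day 1, -1.74 ± 0.07 at day 7 and -2.98 ± 0.27 at day 14 (SD, n = 3 each; exact permutation test, p = 0.00357, adjusted p = 0.00714). Divided by exon length, the Ifngr2 level stood at 0.545 to 0.738 of the Ifngr1 level at day 1, 0.22 to 0.238 at day 7 and 0.0789 to 0.114 at day 14. The transcripts of the gamma receptor chains thus moved apart at each day.

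Transcripts of the gamma receptor chains also gained on those of the type I chains, and receptor protein was not measured. Ifngr2 itself was nearly level at day 14 over day 1 (-0.05 ± 0.07), while Ifnar2 fell (-0.90 ± 0.09). The log2 ratio of Ifngr1 to Ifnar1 counts was -0.87 ± 0.16, 0.95 ± 0.12 and 2.47 ± 0.13 at days 1, 7 and 14, and that of Ifngr2 to Ifnar2 was 0.39 ± 0.13, 0.82 ± 0.13 and 1.25 ± 0.11 (SD, n = 3 each; exact permutation test, adjusted p = 0.00714 for each). Per length, Ifngr1 was at 1.01 to 1.25 times the Ifnar1 level at day 1, 3.77 to 4.43 times at day 7 and 10.7 to 12.8 times at day 14. Ifngr2 was at 1.08 to 1.28, 1.43 to 1.7 and 1.94 to 2.26 times the Ifnar2 level. The log2 ratio of Ifnar2 to Ifnar1 moved less, at -1.47 ± 0.02, -1.61 ± 0.18 and -1.77 ± 0.22 (exact permutation test, adjusted p = 0.0464). It did not pass without any single library other than day 14 library 5 (0.0786 to 0.261).

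The log2 ratio of Jak2 to Jak1 was -2.15 ± 0.11 at day 1, -2.56 ± 0.04 at day 7 and -2.09 ± 0.04 at day 14 (SD, n = 3 each; exact permutation test over the 3 days, adjusted p = 0.0171). Irf9 to Stat2 stood at -0.06 ± 0.09, 0.21 ± 0.12 and 0.00 ± 0.01 at days 1, 7 and 14 (exact permutation test, adjusted p = 0.0161). That call was lost without day 1 library 4 or 5 or any single day 14 library (0.0557 to 0.0729, against 0.0161 at the lowest). Per length, the Irf9 to Stat2 ratio was 0.987 to 1.1 at day 1, 1.17 to 1.38 at day 7 and 1.1 to 1.11 at day 14. The length used for Irf9, 5386 bases, covers most of its gene and may set its per-length level too low. The size of this per-length ratio thus depends on that length, and its course over the days does not.

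**Figure D4:**
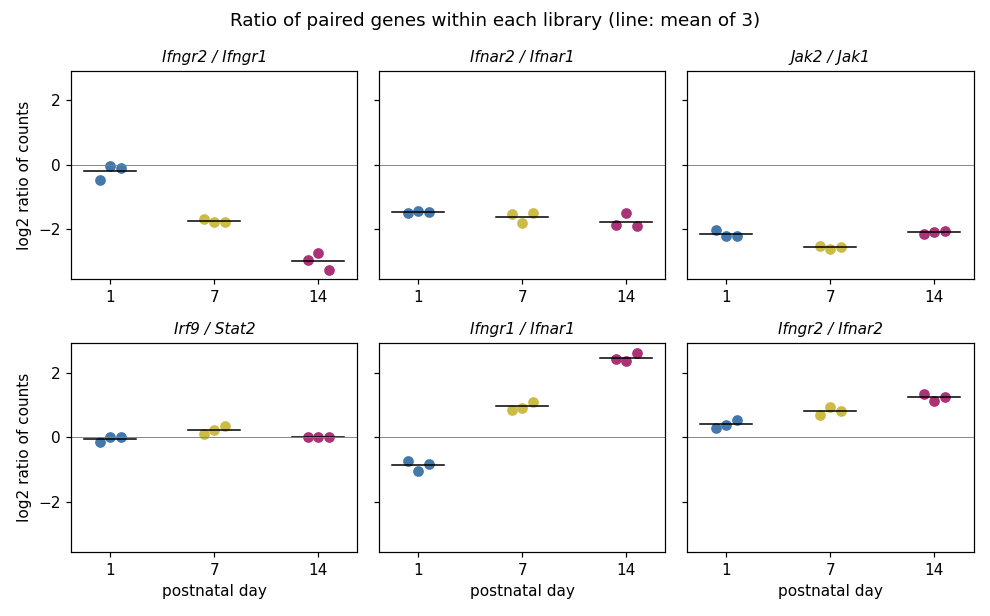
log2 ratio of the counts of 2 genes within each library at days 1, 7 and 14, for 6 pairs on a shared axis. Points are libraries and lines the mean of 3. Ifngr2 to Ifngr1 drops by 2.78 between days 1 and 14 and Ifngr1 to Ifnar1 climbs by 3.34, while the other pairs move less.

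Levels of different genes were compared per length, in CPM per kb of all annotated exons (GENCODE vM21). This length counts rare isoforms too, so the order depends on it. For Irf9 it was 5386 bases, which is most of a gene running from 55603985 to 55610030. A length above that of the transcripts present lowers the level per kb, so the rank of Irf9 may be too low. The order differs from that of the deposited TPM values, which were looked at before those columns were set aside. At day 1 the order was Irf1 (54.1 ± 16.3 CPM per kb), Jak1 (32.8 ± 0.32), Ifngr1 (13.2 ± 1.84), Ifnar1 (11.5 ± 0.45), Jak2 (10.6 ± 0.97), Ifngr2 (8.58 ± 0.57), Ifnar2 (7.39 ± 0.18), Irf9 (5.73 ± 0.54) and Stat2 (5.40 ± 0.27; SD, n = 3 each). Neighbours whose libraries overlapped were Ifngr1 with Ifnar1, Ifnar1 with Jak2, and Irf9 with Stat2. At day 7 Jak1 (46.6 ± 1.20 CPM per kb) stood above Ifngr1 (42.2 ± 2.74), and Ifngr1 overlapped Irf1 (42.2 ± 18.4). Then came Jak2 (11.3 ± 0.53 CPM per kb), Ifnar1 (10.5 ± 0.57), Ifngr2 (9.51 ± 0.21), Irf9 (6.51 ± 0.75), Ifnar2 (6.13 ± 0.45) and Stat2 (5.12 ± 0.57), where Jak2 overlapped Ifnar1, and Ifnar2 overlapped both Irf9 and Stat2. At day 14 Ifngr1 (86.8 ± 7.90 CPM per kb) and Irf1 (85.2 ± 7.96) overlapped at the top, above Jak1 (52.2 ± 0.59) and Jak2 (17.6 ± 0.50). Below them each neighbour overlapped the next from Irf9 (9.95 ± 0.48 CPM per kb) through Stat2 (9.03 ± 0.48) and Ifngr2 (8.30 ± 0.79) to Ifnar1 (7.51 ± 0.31), and Ifnar2 (3.96 ± 0.56) stood apart as the lowest.

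Ifnar2, Ifnar1 and Ifngr2 lie together on chromosome 16, with Il10rb, a chain of the interleukin 10 and type III interferon receptors, between Ifnar2 and Ifnar1. These 4 genes span 191 kb, from 91372783 to 91564007. Il10rb averaged 12.0 ± 0.62 CPM at day 1, 14.6 ± 1.26 CPM at day 7 and 5.64 ± 0.55 CPM at day 14. It fell at day 14 over day 7 (-1.37 ± 0.10, edgeR adjusted p = 1.33e-07), as did Ifnar2, Ifnar1 and Ifngr2 by the values above, the last by a call that 5 of 15 alternatives removed. Ifngr1, on chromosome 10, rose in that step. In the first step the neighbours differed, since Il10rb was higher at day 7 than at day 1 (0.28 ± 0.09, edgeR adjusted p = 0.027) while Ifnar2 was lower. Il10rb was chosen after its values were seen.

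Other genes of the pathway were taken from lists chosen with earlier results of these data known. Their counts stand beside the shares of all genes called, which were 25.5% higher and 24% lower at day 7 over day 1 and 32.5% higher and 35.1% lower at day 14 over day 7. Of 17 other kinase, Stat, Irf and receptor genes, 16 were tested, and 11 rose and 0 fell at day 7 over day 1 (median log2 fold change 0.419, against -0.001 over all genes). At day 14 over day 7, 9 rose and 4 fell (median 0.343, against -0.035). Irf5, Stat3 and Stat5a rose in both steps by edgeR. Irf5, a factor of innate immune signalling, averaged 10.6, 23.5 and 37.3 CPM at days 1, 7 and 14. Stat3, which acts below interleukin 6 and 22 receptors, averaged 225, 276 and 497 CPM, and the related Stat5a averaged 19.3, 28.0 and 39.7 CPM.

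Of 13 feedback inhibitor genes, 5 rose and 3 fell at day 7 over day 1 (median 0.233), and 8 rose and 1 fell at day 14 over day 7 (median 0.207), against medians of -0.001 and -0.035 over all genes. In the first step the share that fell was close to the 24% of all genes. Usp18, which binds Ifnar2 and limits type I signalling, averaged 1.28 ± 0.23 CPM at day 1, 6.09 ± 0.46 CPM at day 7 and 24.4 ± 1.05 CPM at day 14 (4.25 ± 0.12 for day 14 over day 1, edgeR adjusted p = 2.54e-11). The phosphatase gene Ptpn1 averaged 82.5, 99.3 and 137 CPM and the STAT inhibitor gene Pias3 31.9, 41.8 and 49.0 CPM, and both rose in each step. Socs2, a suppressor of cytokine signalling, fell to 1.60 ± 0.35 CPM at day 7, against 6.38 ± 1.09 CPM at day 1 (-1.99 ± 0.23, edgeR adjusted p = 2.1e-05), and was at 1.57 ± 0.45 CPM at day 14.

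Interferon transcripts themselves were near the limit of detection. Of 21 interferon genes, 15 had 0 counts in every library, the highest count of any of them in a library was 3, and their sum ranged from 0 to 8 counts per library. None reached the 10 counts set for naming a ligand, and no gene of the list passed the low-count filter. A transcript made by few cells, or by cells that the gate removed, was not detectable here.

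Target genes were counted in 2 lists. The shares of all genes were again 25.5% higher and 24% lower in the first step and 32.5% and 35.1% in the second, with medians of -0.001 and -0.035. Of 36 type I response genes, 32 were tested, and 11 rose and 5 fell at day 7 over day 1 (median -0.289), while 11 rose and 2 fell at day 14 over day 7 (median 0.39). The share of this list that rose in the second step was close to that of all genes. Trim25, Ifi27, Parp14 and the RNA sensor Ifih1 rose in both steps. Ifih1 averaged 8.28, 13.2 and 22.3 CPM and Parp14 6.95, 16.4 and 30.4 CPM at days 1, 7 and 14. By edgeR, Rsad2 (-2.66), Mx1 (-1.75), Mx2 (-1.57), Ifi44 (-1.52) and Cmpk2 (-0.53) fell at day 7 over day 1. Ifit2 (-2.59) and Mx1 (-0.88) fell at day 14 over day 7, where Mx2 (3.47) and Cmpk2 (0.37) rose. Mx1 averaged 2.61, 0.77 and 0.417 CPM at days 1, 7 and 14. In this list, 13 genes rose and 6 fell at day 14 over day 1 (median 0.196, against -0.046 over all genes). Of 24 type II response genes, 22 were tested, and 16 rose and 1 fell at day 7 over day 1 (median 1.13), while 10 rose and 3 fell at day 14 over day 7 (median 0.747). The smallest p over the 3 days belonged to Tap2, Tap1, Psmb9 and Psmb8, genes of peptide loading and of the immunoproteasome, which rose in both steps. Psmb8 averaged 2.34, 8.70 and 43.1 CPM and Psmb9 0.64, 5.30 and 14.6 CPM at days 1, 7 and 14.

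Markers of other cells moved between the days. The summed level of 14 leukocyte genes was 6.17 to 8.07 CPM at day 1, 7.01 to 8.61 CPM at day 7 and 34.5 to 35.1 CPM at day 14. Most of this sum came from Cd74 (1.59, 2.82 and 14.2 CPM at days 1, 7 and 14) and Cd68 (4.15, 2.73 and 8.73 CPM). Of the 11 leukocyte genes tested, 10 were higher and 0 lower at day 14 than at day 7, against 32.5% and 35.1% of all genes. Ptprc, which encodes CD45, had 0 to 4 counts per library at day 1, 0 to 6 at day 7 and 6 to 9 at day 14, and Tyrobp, a myeloid and natural killer adaptor, had 6 to 17, 5 to 14 and 40 to 81 counts. The sum of 10 fibroblast genes was 287 to 402 CPM at day 1, 72.2 to 123 CPM at day 7 and 77.0 to 94.8 CPM at day 14, and that of 9 melanocyte genes was 417 to 442, 114 to 134 and 8.50 to 11.9 CPM. Within the fibroblast list, Thy1 went the other way, at 8.78, 25.6 and 37.9 CPM at days 1, 7 and 14, while Dcn, which encodes the matrix protein decorin, averaged 107, 11.5 and 6.79 CPM. Both were chosen after their values were seen. The sum of 11 endothelial genes stayed between 2.94 and 6.07 CPM in all libraries, and that of 9 erythroid genes ranged from 0.90 to 4.61 CPM at day 1, 32.9 to 108 CPM at day 7 and 3.08 to 12.7 CPM at day 14. Their part in the changes of the 9 genes was not tested.

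Genes with patterns most like the 3 members of smallest p over the 3 days were sought among 9344 other genes. These had a mean of at least 10 CPM, and Pearson's r of log2 CPM was taken over the 9 libraries. Over the 3 days, 82.1% of all genes tested were called. A high r thus does not separate a shared course over the days from a closer link. Closest to Ifngr1 were Chl1, a neural adhesion gene (r = 0.9979; 70.8, 171 and 307 CPM at days 1, 7 and 14), the glutamate dehydrogenase gene Glud1 (r = 0.9977) and the serotonin transporter gene Slc6a4 (r = 0.9975; 6.48, 24.9 and 58.0 CPM). Among those closest to Jak1 were Ccdc82 and the actin regulator gene Cap1 (r = 0.997 for each). Closest to Jak2 were the cohesin loader gene Nipbl (r = 0.995), Rhbdf1 (r = 0.993) and the nuclear pore gene Ranbp2 (r = 0.992).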

How the data were processed

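RNA of sorted keratinocytes was measured in 9 libraries, 3 each at postnatal days 1, 7 and 14. Per the labels' protocols, stranded mRNA libraries were sequenced on a NovaSeq instrument. Per the submitters' processing notes, the tools were HISAT2 2.1.0, StringTie 1.3.4d, Trimmomatic and bcl2fastq 2.20.0, with build mm10. How reads were counted, and with which strand setting, is not given in the sources used here. The authors deposited whole read counts per gene, as their column headers say. A further 18 columns of other units were not used, and only the counts were kept for each library. All columns, the counts included, can be matched to a day but not to a sample. The deposited TPM values were looked at before they were set aside, and they gave another order of levels between genes.

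Headers name days D0, D7 and D14. The D0 libraries were taken as day 1, since no sample title has day 0 and the other days have headers of their own. Library numbers are those of the headers (4, 5 and 6 at days 1 and 14, 1, 2 and 3 at day 7), which cannot be matched to the titles.

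Counts were scaled with TMM and fitted in 1 model with day as a factor by edgeR's robust quasi-likelihood method (edgeR 4.0.16, R 4.3.3), over 14507 genes kept by filterByExpr, with Benjamini-Hochberg adjustment and a call at an adjusted p under 0.05. Alternatives used DESeq2 1.42.0, limma-voom (limma 3.58.1), other scalings, no filter, pairs of days alone and the omission of each library. A block on header numbers was added after the data were seen. The steps were tested on simulated counts. Members, lists and tests were chosen with earlier results of these data known. The text names all 9 members, and from each pathway list up to 4 genes of smallest p over the 3 days with a mean of at least 1 CPM. It also names interferons with at least 10 counts, the 3 genes most like each of 3 members, and 7 check genes. Some genes that this rule names are not reported here. Lengths are unions of GENCODE vM21 exons, a choice made after the data were seen. Il10rb was added after its values were seen, for its place beside Ifnar2. Cd74, Cd68, Thy1, Dcn and the type I response genes called lower in either step were also added after their values were seen.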

Additional observations from a re-analysis of the deposited data

How the results depend on the processing

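The counts of genes called were 3 at day 7 over day 1 (2 to 4 over the alternatives), 9 at day 14 over day 7 (7 to 9), 7 at day 14 over day 1 (7 to 8), 7 over the 3 days (7 to 8) and 7 for the difference between the steps (5 to 7). Of 6 ratios, 6 passed, and 4 to 6 over the alternatives. All these counts stayed within 1.5 times. Changes that turned sign were Jak2 (-0.007) with library totals alone at day 7 over day 1 and Jak1 (-0.011) with library totals alone at day 14 over day 7. Stat2 at day 7 over day 1 turned without day 7 library 2, with a range of -0.151 to 0.009 over the omissions, and Ifngr2 at day 14 over day 1 without day 14 library 6, from -0.11 to 0.021. Apart from Jak1, none of these had passed the test. Ifngr2 at day 14 over day 1 passed with library totals alone (-0.321, against a median of all genes of -0.319). Library totals alone moved the median of all genes to -0.1, -0.21 and -0.319 in the 3 comparisons, against -0.001, -0.035 and -0.046 with TMM. The cause of these shifts was not tested. The planned fits on the deposited TPM values were not run. Those columns were set aside after their order of levels between genes was seen, so the dependence of the results on them was not tested. Columns of days 1 and 14 are numbered 4 to 6, which no title has, so day 7 (1 to 3) shares no number with them and no paired fit could include it. A fit of days 1 and 14 with the header number as a replicate block, chosen after seeing the data, called 7 of 9 genes, and 10170 of all genes against 10531 without the block. Same-numbered libraries deviated together with r of 0.014, 0.01 and 0.104, and not every library correlated best with its own number, so the numbers were not taken as pairs.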
